A study of Mus musculus with 4 samples.

Results

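Interferon-responsive genes were measured on 4 Affymetrix MOE430A arrays in cultured fibroblasts of mouse embryos (MEFs). All 4 samples had been infected with the pBabePuro retrovirus, which carries puromycin resistance. The virus was empty in control 1 and control 2 and carried mTert, the mouse gene for the reverse transcriptase of telomerase, in mTert 1 and mTert 2. The strain, the passage and the time after infection are not given in the sources used here, nor is the meaning of the numbers 1 and 2, so no array is known to be a separate culture and the p-values rest on a spread that may be technical. A retroviral transgene of this kind is driven by the virus's own promoter and not by that of Tert, and the Tert probe set was called absent on both control arrays and present on both mTert arrays. The genes were chosen from a list of 35 symbols known to respond to interferon, and earlier results of these data were known at that choice. Every probe set annotated with exactly 1 of these symbols was taken, which gave 46 probe sets of 32 genes, out of 12393 genes on the array. Of these, 30 probe sets of 27 genes were called present on at least 2 of the 4 arrays and were tested, among 12396 tested probe sets of all genes, and 16 probe sets were not. Oas1a, Mx2, Adar, Ifi35 and Isg20 had no tested probe set. Isg15, Ddx58 and Xaf1 were not analysed here because no probe set carried their symbol alone.

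Type I interferons bind a receptor made of Ifnar1 and Ifnar2, whose kinases Jak1 and Tyk2 phosphorylate Stat2. A complex that contains Stat2 and Irf9 binds the interferon-stimulated response element (ISRE) in the promoters of many antiviral genes, while the GAS element is used mainly after interferon gamma. Fibroblasts both make and answer interferon beta, and interferon-stimulated genes such as the Ifit and Oas families are kept at a low level until the receptor is engaged.

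The ISRE and GAS letters were looked for in the promoters of these genes. The genes were listed as responders to interferon, so an excess of these letters can come with that choice. It is no separate evidence about these arrays. The ISRE core was searched as GAAANNGAAA and the GAS element as TTCNNNGAA, on both strands, in windows from 250 bases before to 50 bases after each start site of RefSeq (GRCm38.p6). Of the member genes, 29 had a window in this table. The ISRE core was found for 17 of them (58.6%), against 1079 of all 27025 genes (3.99%) and 1131 of all 32851 windows (3.44%). The GAS letters were found for 11 of the 29 (37.9%), against 9.55% of all genes and 8.30% of all windows. A GAS match and an ISRE match can overlap, and a match is a run of letters and not a shown binding site. Stretches of 100 bases are printed here for 5 genes whose signal differed between the arrays in the results that follow and, as a contrast, for Ifitm2, whose signal hardly varied. Each reads 5′ to 3′ along the gene's strand, and the capitals mark the ISRE core, which appears as its reverse complement where the run starts with TTTC.
Ifit1, chr19:34640740-34640839, plus strand: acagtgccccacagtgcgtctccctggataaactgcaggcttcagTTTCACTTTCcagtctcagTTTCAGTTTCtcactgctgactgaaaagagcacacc
Ifit3, chr19:34583328-34583427, plus strand: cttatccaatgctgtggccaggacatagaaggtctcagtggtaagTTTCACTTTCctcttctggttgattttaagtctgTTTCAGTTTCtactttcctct
Igtp, chr11:58199456-58199555, plus strand: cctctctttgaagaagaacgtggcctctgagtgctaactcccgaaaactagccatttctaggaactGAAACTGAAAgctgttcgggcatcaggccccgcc
Trim30a, chr7:104465194-104465293, minus strand: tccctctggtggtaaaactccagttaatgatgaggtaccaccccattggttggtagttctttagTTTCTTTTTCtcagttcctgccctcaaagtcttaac
Bst2, chr8:71537548-71537647, minus strand: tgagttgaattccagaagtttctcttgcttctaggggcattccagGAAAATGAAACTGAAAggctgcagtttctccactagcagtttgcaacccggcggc
Ifitm2, chr7:140955962-140956061, minus strand: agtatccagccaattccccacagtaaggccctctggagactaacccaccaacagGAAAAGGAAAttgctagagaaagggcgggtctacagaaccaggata
Ifit1 and Ifit3 each showed 2 separate matches, in the same order and with the same letters, and Bst2 showed 2 that overlap. Igtp, Trim30a and Ifitm2 showed 1 each. Of the 7 genes with a window that were called higher on arrays numbered 2, these 5 with a match were Ifit1, Ifit3, Igtp, Trim30a and Bst2, and Oasl2 and Trim25 had none.

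The arrays differed in cell markers by number before any interferon gene was considered. All 12 fibroblast markers on the array were called present on every array, with summed signals from 88170.3 to 97076.4. Of their 23 tested probe sets, limma called 3 lower on the arrays numbered 2 (1.07% of all tested) and 0 higher (1.73%). Thy1 (log2 difference -0.68, SE 0.11, adjusted p = 0.00136) and Dcn (-0.51, SE 0.11, adjusted p = 0.0150) were among those called. Both arrays numbered 2 were below both numbered 1 for 12 of the 23 (19.4% of all) and above them for 3 (20.3%). With 1 probe set per gene, 8 genes were lower and 4 higher, such as Pdgfra (log2 difference 0.23, not called). Over all 7387 genes tested, 3529 were lower and 3858 higher. Of 25 macrophage and other myeloid markers on the array, 11 were present on control 1 and on mTert 1, 20 on control 2 and 21 on mTert 2. Their summed signal was 4902 and 5698 on control 1 and mTert 1, and 24292 and 25336 on control 2 and mTert 2. The defining macrophage markers Csf1r, Adgre1, Cd68 and Ptprc were present on all 4 arrays, Cd14 was present only on the arrays numbered 2, and Itgam was called present on none. The summed signal of these 6 was 1640.1 and 1676 on control 1 and mTert 1, and 5166 and 5129 on control 2 and mTert 2. The labelled fibroblasts therefore carried RNA of macrophage marker genes on every array, with more of it on both arrays numbered 2. Between 51.6% and 54.4% of probe sets were called present on an array. Control 1 was hybridised with 5 µg of labelled cRNA and the other arrays with 15 µg, and each array had its own wash module.

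Of the 27 tested genes, 9 were called higher on the arrays numbered 2 than on those numbered 1 and none lower. Usp18 and Ifit1 were about 3-fold higher, Iigp1 and Ifit3 about 2-fold, and Bst2 and Trim25 1.60-fold to 1.73-fold. Oasl2, Igtp and Trim30a were called too, but lacked a present call on 1 or both arrays numbered 1. Of the 30 tested probe sets, 23 had the higher signal on array 2 in both pairs, where 26.5% of all tested did. In 6 the difference had opposite signs in control and mTert, for some with hardly any change in a pair. Ifitm1 was lower in both. With limma on all 12396 probe sets and group as a term, 10 of the 30 tested member probe sets, of these 9 genes, were called higher at an adjusted p under 0.05, where 1.73% of all tested probe sets were called higher. None was called lower, where 1.07% of all were. Both counts include 6 probe sets that passed the filter only through present calls on the arrays numbered 2, so that a higher signal there was built into their choice: Igtp and Trim30a among the called, and Ifih1, Mx1, Gbp3 and Parp14 among the others. Over probe sets present on all 4 arrays, 7 of 23 members were called, with 244 calls in all in either direction among 10949. At an unadjusted p under 0.05 limma gave 17 members, and 1268 probe sets in all. On simulated data this fit made more false calls than its threshold allows, so its adjusted p-values may be too small. The members and the marker lists were chosen with earlier results of these data known. Their counts beside the shares of all tested probe sets are thus no independent check. Both arrays numbered 2 were above both arrays numbered 1 for 22 of the 30 member probe sets (20.3% of all tested) and below them for none (19.4% of all). The 22, like the 23 above, include all 6 probe sets that passed the filter only through the arrays numbered 2. Without control 2 the call count was 4, without mTert 2 it was 3, and without control 1, the array with less cRNA, or mTert 1 it was 7, in fits with no group term. Without limma's intensity trend it was 3. Oasl2, Usp18 and Ifit1 kept an adjusted p under 0.05 without the trend and with each array left out in turn. The macrophage markers moved with this difference. Of their 26 tested probe sets, 25, of 19 of 20 genes, were called higher on the arrays numbered 2 (1.73% of all tested). The brightest tested probe sets of C1qa, C1qc, Tyrobp, Cd14, Cd53, Coro1a, Fcer1g, Mpeg1 and Fcgr3 were present on the arrays numbered 2 alone. A higher signal there was thus built into their choice. Csf1r, Adgre1, Cd68 and Ptprc, present on all 4 arrays, were also called. The part of these markers in the result was not tested. In RNA from bulk cells, fewer cells of a type and less RNA per cell cannot be told apart.

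Each pair of arrays, control and mTert, was also taken by itself, with the same 6 probe sets included. Control 2 was at least 1.5-fold above control 1 for 15 of the 30 member probe sets, where 4.68% of all tested were. In the mTert cells array 2 was at least 1.5-fold above array 1 for 12 of the 30, where 3.96% of all were. In both pairs together it was 10 of the 30, each of a different gene, where 1.67% of all were. No member was 1.5-fold lower in either pair, where 3.54% of all tested probe sets were in control and 4.04% in mTert. These are comparisons of 1 array with 1 array and have no replicate check. Over the 27 genes, taking the brightest tested probe set of each, the median log2 difference of array 2 from array 1 was 0.65 in control and 0.45 in mTert, and over all 7387 genes tested it was 0.017 and 0.0037. The fitted difference had a median of 0.52 with quartiles of 0.28 and 1.03. It was above 0 for 24 of the 27 genes, and for 3858 of all 7387. The control pair's median was 0.46 over members present on all 4 arrays, and 0.45 with 50 added to each signal.

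**Figure D1:**
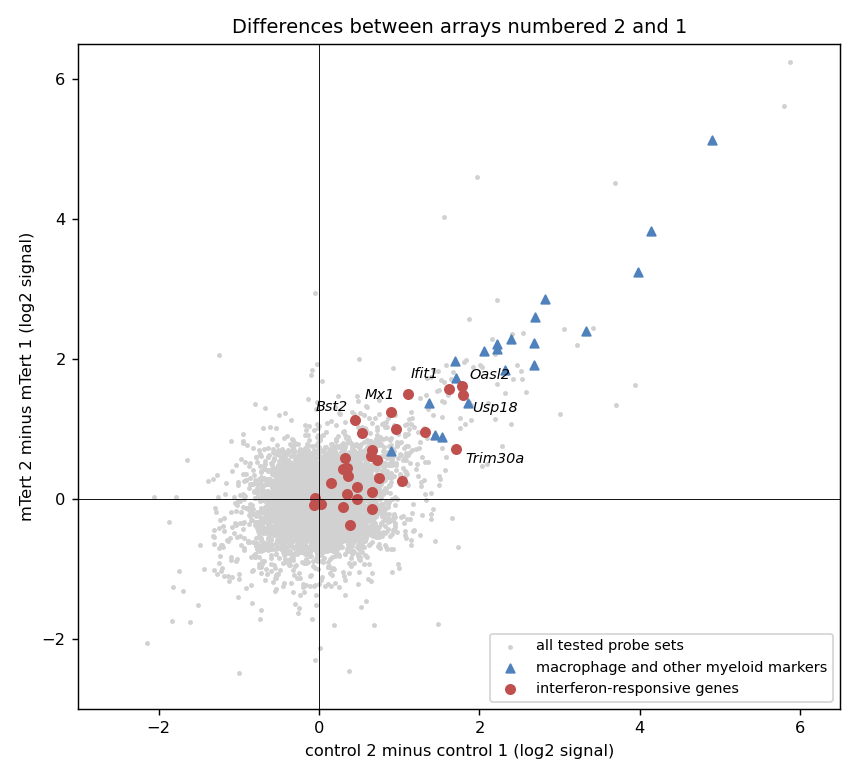
Log2 difference of control 2 from control 1 (horizontal) against that of mTert 2 from mTert 1 (vertical) for all 12396 tested probe sets (grey), the 30 tested probe sets of interferon-responsive genes (red circles) and 1 probe set for each of 20 macrophage and other myeloid markers (blue triangles). The red circles lie mainly above 0 on both axes, with Oasl2, Usp18 and Ifit1 at the far end, and the triangles reach farther out in the same direction.

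Among the factors of the pathway and its inhibitor, Usp18 was called and the 4 transcription factors were not. Usp18, a protease that removes Isg15 from proteins and binds the interferon receptor to limit its signalling, had signals of 188 on control 1, 654 on control 2, 219 on mTert 1 and 610.3 on mTert 2. Both arrays numbered 2 were thus 2.79-fold to 3.48-fold above their partners (log2 difference 1.64, SE 0.19, limma adjusted p = 4.97e-05). Irf9, the DNA-binding subunit of the complex that reads the ISRE, read 371 and 583 on control 1 and 2 and 417 and 637 on mTert 1 and 2. Its groups by number did not overlap, and the folds of 1.57 and 1.53 were alike, but its adjusted p was 0.0605 (log2 difference 0.63, SE 0.17). Stat2, the partner that brings the activation domain, read 128.5 and 215 on the control arrays and 184 and 227 on the mTert arrays. Its log2 difference of 0.52 (SE 0.24) missed the threshold, with an adjusted p of 0.453. Irf7, the factor that amplifies interferon production, read 207 and 265 on the control arrays and 295 and 308 on the mTert arrays, so its arrays overlapped by number (adjusted p = 0.902). For Irf1, a factor induced mainly by interferon gamma, the signals were 885 and 1230.2 in control and 1028 and 1027 in mTert. Control 2 stood above the other arrays, which no fit across both pairs called (adjusted p = 0.737).

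The RNA sensors held no called member. Ifih1, the helicase MDA5 that detects long double-stranded RNA, was called absent on both arrays numbered 1 and present on both numbered 2, with signals of 273 and 348 in control and 202 and 275 in mTert. Its signals on the arrays numbered 2 were 1.32-fold those on the arrays numbered 1 (log2 difference 0.40, SE 0.20, limma adjusted p = 0.567). Here and for other genes absent on both arrays numbered 1, such a ratio is an estimate from the signals. It is neither a measured fold nor a lower bound. Eif2ak2, the kinase PKR that halts translation on double-stranded RNA, had 2 tested probe sets. The brighter one read 201 and 248 in control and 205 and 277 in mTert, with both arrays numbered 2 above, and the other read 156 and 193 in control and 213 and 196 in mTert, with overlap. Dhx58, the helicase LGP2 that modulates the other sensors, went opposite ways: 189.6 and 247 in control against 263 and 202 in mTert.

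Among the IFIT proteins, which bind viral RNA and block its translation, Ifit1 and Ifit3 were called and Ifit2 was not. Ifit1 read 287 on control 1, 879 on control 2, 307 on mTert 1 and 915 on mTert 2. Each pair differed by about the same amount, 3.07-fold in control and 2.98-fold in mTert (log2 difference 1.60, SE 0.17, limma adjusted p = 1.51e-05), and its promoter is among those printed. Ifit3, a partner of Ifit1, read 348 and 649 in control and 354.5 and 837 in mTert (log2 difference 1.07, SE 0.17, adjusted p = 0.00136). Ifit2 read 239.6 and 309 in control and 204 and 256 in mTert (log2 difference 0.35, SE 0.21, adjusted p = 0.700). The arrays were apart by number for all 3 genes, for Ifit2 by a gap of 239.6 to 256. Without mTert 2, the adjusted p of Ifit3 was 0.108.

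Oasl2, which belongs to the 2'-5' oligoadenylate synthetase family that activates RNase L, had the highest fitted difference of the members. It read 140.1 and 484 in control and 146 and 445 in mTert, and was called absent on mTert 1 alone. Control 2 was 3.45-fold above control 1, while the mTert pair has no measured fold (fitted log2 difference 1.70, SE 0.21, adjusted p = 8.30e-05). Bst2, or tetherin, which holds budding virus at the cell surface, read 433.5 and 593 in control and 399 and 873 in mTert. Its groups by number were apart, with 1.37-fold in control and 2.19-fold in mTert (log2 difference 0.79, SE 0.18, adjusted p = 0.0265). The fit of all 4 arrays without a group term gave an adjusted p of 0.110. Leaving out control 1, control 2, mTert 1 or mTert 2, also without a group term, gave 0.109, 0.0532, 0.186 and 0.399. The call was also lost under quantile normalization (0.0639), without the filter on calls (0.0842) and without limma's intensity trend (0.302). Rsad2, or viperin, an enzyme that makes a chain-terminating nucleotide, read 113 and 231 in control and 207 and 248.5 in mTert, which set control 1 apart from the other 3 arrays (adjusted p = 0.291).

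The IFITM proteins, which stop enveloped viruses from fusing with the cell, were not called by number. Ifitm2 read 6816 and 6608.5 in control and 6735 and 6766 in mTert (log2 difference -0.02, SE 0.08, adjusted p = 0.997). Ifitm3 read 5857 and 6508 in control and 6279.8 and 7384 in mTert, so that both arrays numbered 2 were above, by 1.11-fold and 1.18-fold (adjusted p = 0.355). Ifitm1 read 183 and 175 in control and 125 and 118 in mTert, the only tested member probe set with a lower signal on array 2 in both pairs. Samhd1, an enzyme that depletes nucleotides needed by retroviruses, read 346 and 353 in control and 302 and 287 in mTert on its tested probe set. No fold in either pair of these 4 genes reached 1.5.

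Of the 7 tested probe sets of interferon-induced GTPases, 2 were called higher (1.73% of all tested) and 6 had both arrays numbered 2 above both numbered 1 (20.3% of all). Igtp, Mx1 and Gbp3 among them entered only through the arrays numbered 2. Iigp1, which attacks the vacuole of intracellular parasites and whose gene lies on chromosome 18, read 244.5 and 610.3 in control and 332 and 647 in mTert (log2 difference 1.14, SE 0.18, adjusted p = 0.00123). Igtp, of the same immunity-related family, read 252 and 491 in control and 266 and 534 in mTert, and was called absent on both arrays numbered 1. Its signals gave a ratio of 1.97 for the arrays numbered 2, through which alone it entered the test (fitted log2 difference 0.98, SE 0.19, adjusted p = 0.00518). Both genes were apart by number, and both lost the call without control 2 (adjusted p = 0.0999 and 0.0870) or mTert 2 (0.127 for each). Irgm1, the regulator of this family, read 689 and 866 in control and 581 and 867 in mTert (adjusted p = 0.196). Mx1, a dynamin-like GTPase against influenza that is defective in many inbred mouse strains, was absent on both arrays numbered 1, with 40.2 and 86.4 in control and 35.9 and 102 in mTert. Its signals gave a ratio of 2.47 for the arrays numbered 2, again no measured fold, and at these low signals the SE was 0.37 and the adjusted p 0.0777. The guanylate-binding proteins, which act on vacuoles and bacteria, were not called. Gbp2 read 161 and 266 in control and 207 and 305 in mTert on its brighter probe set, while a second one, of a type that can cross-hybridise, read 122 and 193 in control and 150.0 and 136 in mTert. Gbp3 was absent on both arrays numbered 1 and read 80.9 and 128 in control and 79.0 and 84.5 in mTert.

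Among the regulators that attach ubiquitin or ADP-ribose, both Trim genes were called. Trim25, the ubiquitin ligase that activates the sensor RIG-I, had 2 tested probe sets, both called. The one with the higher mean log2 signal read 537 and 850.5 in control and 547.5 and 884 in mTert (log2 difference 0.68, SE 0.16, adjusted p = 0.0236). The other read 565 and 817 in control and 497 and 951 in mTert (log2 difference 0.73, SE 0.16, adjusted p = 0.0191). Both showed the arrays numbered 2 above those numbered 1, and the first lost the call with any array left out, with adjusted p-values between 0.0695 without mTert 1 and 0.187 without mTert 2, and 0.0840 and 0.153 without control 1 and control 2, and 0.0529 without the filter on calls. Trim30a, which restrains inflammatory signalling in mouse myeloid cells, read 182 and 596 in control and 247 and 406 in mTert. Its call was marginal on control 1 and absent on mTert 1, so it entered the test only through the arrays numbered 2 and has no measured fold. The fitted log2 difference was 1.21 (SE 0.23, adjusted p = 0.00494), and the adjusted p was 0.0755 without control 1, 0.261 without control 2 and 0.0646 without mTert 2. Parp14, an ADP-ribosyltransferase, was absent on both arrays numbered 1 and read 143 and 199 in control and 141 and 158.5 in mTert (adjusted p = 0.822).

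**Figure D2:**
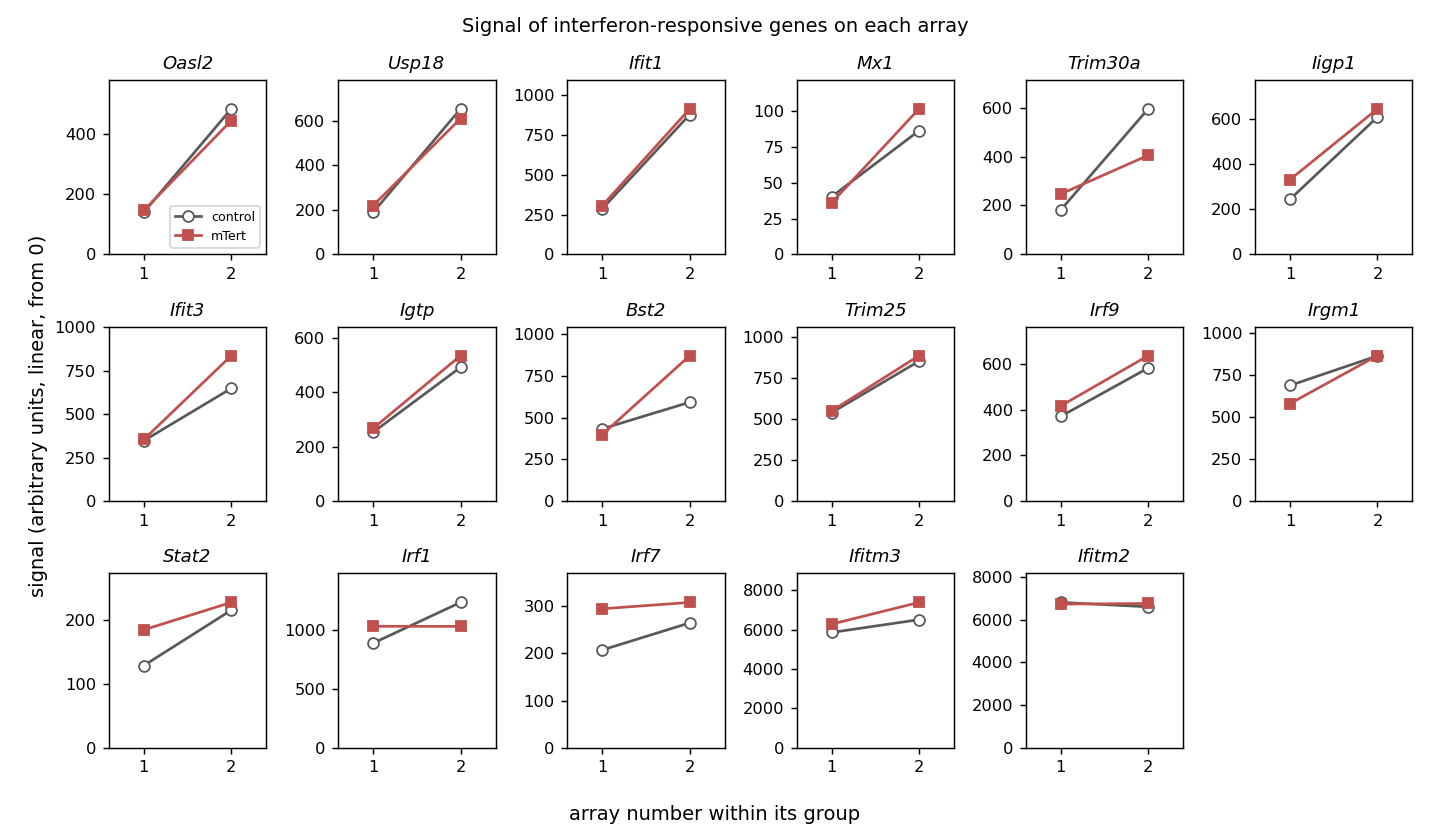
Signal in arbitrary units, on a linear axis that starts at 0, of 17 interferon-responsive genes on each array, 1 probe set per gene; lines join array 1 and array 2 of the control cells (open circles) and of the mTert cells (red squares). From Oasl2 to Irf9 both lines climb, as for Ifit1 from 287 and 307 to 879 and 915, while the lines of Ifitm2 stay level between 6608.5 and 6816.

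The 16 untested probe sets included 15 that were called absent on all 4 arrays, so they have no measured level. Oas1a, a 2'-5' oligoadenylate synthetase, read 66.2 and 506 in control and 70.8 and 490.3 in mTert without a present call. Adar, which edits double-stranded RNA, read 241 and 436 in control and 289 and 449 in mTert. Ifi35 read 124 and 330.3 in control and 49.0 and 177 in mTert. Mx2 read 30.6 and 58.3 in control and 39.0 and 39.5 in mTert. With no call behind these signals, no direction is read from them. Isg20, an exonuclease, read 97.4 and 81.2 in control and 101 and 50.1 in mTert.

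Of 27 listed genes of interferon signalling, 26 were on the array under their symbol alone and 17 were tested, with 26 probe sets, of which limma called 0 higher and 0 lower by number. Over all tested probe sets 1.73% were called higher and 1.07% lower, so that 26 probe sets are few for such a count. Both arrays numbered 2 were above both numbered 1 for 9 of the 26 (20.3% of all) and below them for 2 (19.4%). With 1 probe set per gene, 16 of the 17 were higher, where 3858 of all 7387 genes were. The receptor subunits and kinases Ifnar1, Ifnar2, Ifngr1, Ifngr2, Jak1 and Jak2 were called present on every array. The kinase Tyk2 was marginal on control 1 and absent on the other arrays, and was not tested. Ifnar1 read 619.5 and 743 in control and 599.8 and 716 in mTert, and Ifnar2 read 690.0 and 771.5 in control and 715 and 863 in mTert. Both subunits were above their partners on the arrays numbered 2 without a call. The interferon genes Ifna1, Ifna2, Ifna4, Ifnab, Ifnb1 and Ifng were called absent on all 4 arrays. The median log2 difference by number was 0.18 over the 17 signalling genes and 0.053 over the 6 tested genes of nucleic acid sensing, of which 0 of 10 probe sets was called, again a number too small to set against those shares.

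Other interferon-induced genes, outside the member list, also held called genes. The list was chosen with earlier results of these data known and includes relatives of the members, so it is no independent check. Of 61 listed, 47 were on the array and 24 were tested, with 27 probe sets, of which 5 were called higher (1.73% of all tested) and 0 lower (1.07%), and 17 had both arrays numbered 2 above both numbered 1 (20.3%). The median log2 difference was 0.34. The called genes, named after their values were seen, were Rtp4, Lgals3bp, Parp12 and Ms4a6d, the last of them present on the arrays numbered 2 alone. Helz2 and Mov10, whose brightest tested probe sets were not called, also entered only through the arrays numbered 2. Rtp4, a chaperone induced by type I interferon, read 444 and 1252 in control and 415 and 1219 in mTert (log2 difference 1.52, SE 0.15, adjusted p = 8.80e-06). Parp12, an antiviral relative of Parp14, read 599 and 935 in control and 512 and 978 in mTert (adjusted p = 0.00795). Both were apart by number in each pair. The macrophage and other myeloid markers had a median of 2.20 over 20 genes, part of which, as named above, entered only through the arrays numbered 2. Ranked by p over all tested probe sets, the first member, Ifit1, was at place 34.

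**Figure D3:**
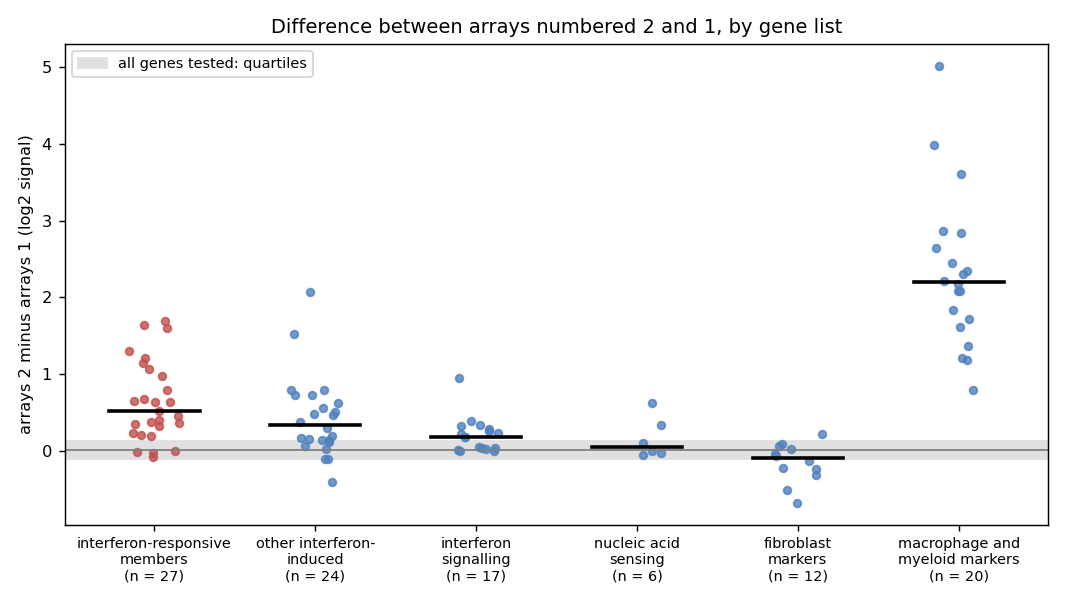
Log2 difference of the arrays numbered 2 from those numbered 1 for each tested gene of 6 lists, 1 probe set per gene; black bars are medians and the grey band holds the middle quartiles of all 7387 tested genes. The interferon-responsive members have a median of 0.52, other interferon-induced genes 0.34, signalling 0.18, nucleic acid sensing 0.053, fibroblast markers -0.096 and macrophage and myeloid markers 2.20. Some genes, macrophage markers among them, entered the test only through the arrays numbered 2.

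Between mTert and control cells no interferon-responsive gene was called. Limma, without a term for the number, called 0 of the 30 member probe sets and 0% of all 12396, the smallest adjusted p of a member being 1.00. At an unadjusted p under 0.05 it gave 1 member and 261 probe sets in all. Both mTert arrays were above both controls for 2 of the 30 member probe sets (13.4% of all tested) and below them for 2 (12.1% of all). Of the 27 genes, 17 were above 0 and 10 below, against 3875 and 3512 of all 7387 genes. The median log2 difference over the 27 was 0.059, against 0.0076 over all genes. With 1 array left out it ranged from -0.30 without mTert 2 to 0.45 without control 2, and was -0.29 without control 1 and 0.39 without mTert 1, since a group with 1 array then holds part of the difference by number. The macrophage and myeloid markers had a median of 0.11 in this comparison, with 0 of 26 probe sets called.

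The groups did not overlap for 4 member probe sets. Ifitm1, at 183 and 175 in control and 125 and 118 in mTert, was the member with an unadjusted p under 0.05 (log2 difference -0.56, SE 0.20, limma adjusted p = 1.00). Its mTert signals were lower by a fold below 1.5. Irf7, at 207 and 265 in control and 295 and 308 in mTert, lay above the controls on both mTert arrays (log2 difference 0.36, SE 0.19, adjusted p = 1.00), and Samhd1, at 346 and 353 against 302 and 287, lay below them (log2 difference -0.25, SE 0.16, adjusted p = 1.00). The second probe set of Eif2ak2 was also above on both mTert arrays, which its brighter one was not. For the genes called by number the group difference was small beside its error: -0.03 (SE 0.71) for Oasl2, 0.06 (SE 0.68) for Usp18 and 0.08 (SE 0.66) for Ifit1. These errors hold the difference between the arrays numbered 1 and 2 of each group. At matched numbers, Ifit1 differed by 0.097 between mTert 1 and control 1 and by 0.057 between mTert 2 and control 2.

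**Figure D4:**
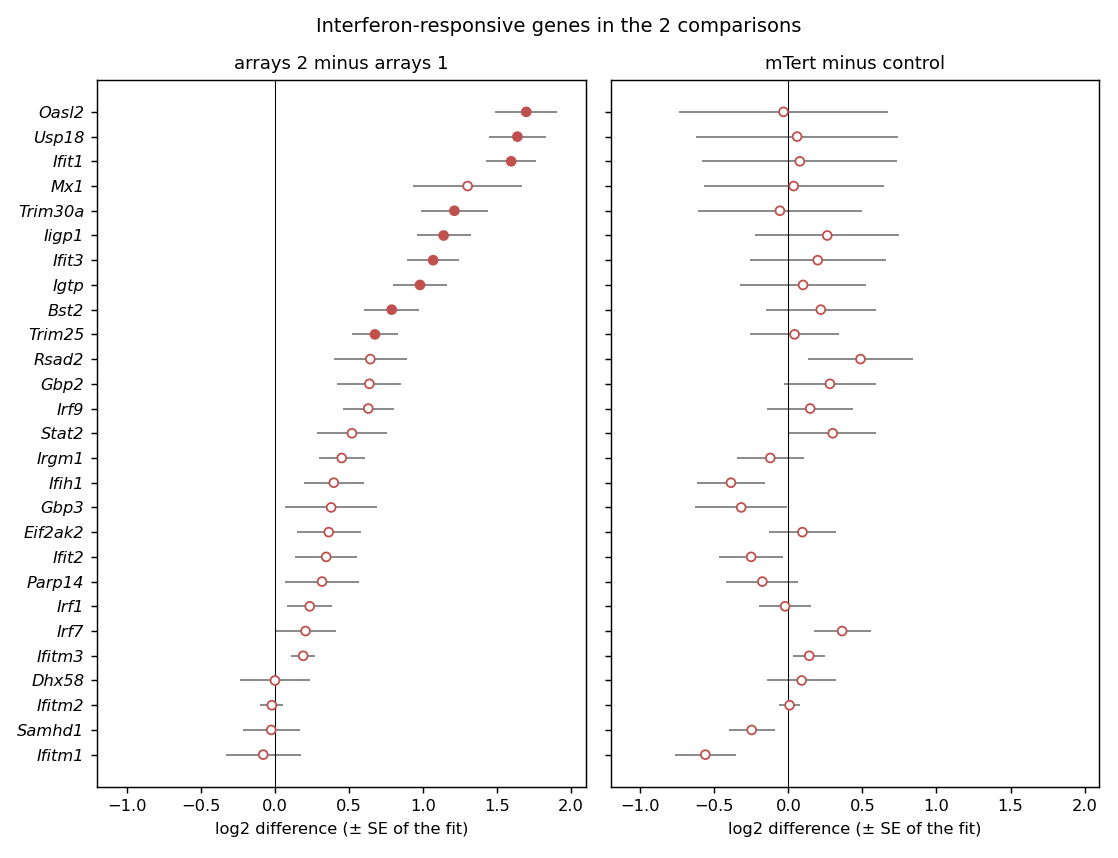
Fitted log2 difference with its standard error for 27 interferon-responsive genes, between arrays numbered 2 and 1 (left) and between mTert and control (right); filled points have a limma adjusted p under 0.05. On the left 9 genes, from Oasl2 at 1.70 to Trim25 at 0.68, are filled, and on the right none is, with values from -0.56 for Ifitm1 to 0.49 for Rsad2.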

How the data were processed

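For each probe set of an array the authors deposited a linear intensity, a present, marginal or absent call and the p-value of that call, per the file headers. The software that made them is not given in the sources. As no probe-level signals were used, neither background correction nor probe normalization was redone. Signals of the 4 arrays were scaled to a common 2% trimmed mean (a shift of at most 0.020%) and taken to log2, with 1 signal at 0 set to its array's lowest present signal. Symbols were those of GEO's platform annotation (20380 probe sets with 1 symbol, 691 with several, 1555 with none). The 64 control probe sets and those present on fewer than 2 arrays were left out.

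The arrays numbered 2 and 1 were set against each other in limma 3.58.1 under R 4.3.3 (lmFit, eBayes with a trend), with group as a term and 1 residual degree of freedom; mTert and control were compared without a number term. P-values were adjusted by the Benjamini-Hochberg method across the 12396 tested probe sets, at a threshold of 0.05. On simulated data the first fit made more false calls than its threshold allows. Values on every array were given for each member called, for each 1.5-fold apart by number in both pairs or between groups that do not overlap, and for Stat2, Irf9, Irf1, Irf7 and the 4 brightest members; the rest were named to account for every member. The members and lists were chosen with earlier results of these data known. Alternatives were quantile normalization, other filters, an added offset of 50, eBayes without a trend, other terms and leaving out each array.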

Additional observations from a re-analysis of the deposited data

Results flagged for a closer look

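For 4 members the difference of array 2 from array 1 had opposite signs in control and mTert cells on the brightest tested probe set. Whether these differences between the groups exceed error was not tested. Log2 differences were small in mTert for Irf1 (-0.0014) and Ifitm2 (0.0062), and in both pairs for Samhd1 (0.027 in control, -0.074 in mTert). The log2 difference in control exceeded that in mTert by 0.476 for Irf1 and by 0.763 for Dhx58. For Samhd1 it did so by 0.101, and for Ifitm2 the value was -0.051. Dhx58 had signals of 189.6 and 247 in control and 263 and 202 in mTert. Irf1 stood out through control 2 alone, at 1230.2 against 885 to 1028 on the other arrays.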

How the results depend on the processing

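The number of arrays limits all values. The count of 10 member probe sets called by number was 3 without the eBayes trend and ranged from 3 to 7 with 1 array left out; it stayed within 1.5 times the reported count under quantile normalization (9), no filter (9), presence on all 4 arrays (7), an offset of 50 (10) and no group term (9). Of the 11 genes followed, none reversed. Without the trend 6 lost the call, namely Ifit3, Bst2, Iigp1, Igtp, Trim25 and Trim30a. No member was called between mTert and control in any setting. With a replicate block on the numbers limma also called 0 members, and 18 probe sets in all; across probe sets, which are not independent, the control and mTert differences by number correlated at r = 0.373, and with 2 pairs and no label on what the numbers mark, the arrays share only a number. The median by number in control was 0.46 over probe sets present on all 4 arrays and 0.45 with the offset, and the fitted median ranged from 0.46 to 0.69 with 1 array left out. The median between mTert and control, 0.059, was 0.031 under quantile normalization, 0.039 with no filter, 0.092 for presence on all 4 arrays, 0.041 with the offset and 0.050 over all member probe sets, and ranged from -0.30 to 0.45 with 1 array left out.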
